A study of Drosophila melanogaster with 216 samples.

Results

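Ageing of male Drosophila melanogaster on standard adult food was read from the male arrays of adult diet 1SY taken at 10% and 90% cohort mortality, here called middle age and old age. The rule kept 23 of the 216 arrays of the series, 12 of middle-aged and 11 of old males, and it left out 1 old array, replicate 3 of larval diet 0.25SY. All flies were virgin males of 1 laboratory stock population, frozen whole and pooled 5 to an array. They had been reared on larval food of 0.25SY, 1SY or 2.5SY, and all were moved to 1SY food, the laboratory's standard mix of sugar and yeast, as adults. The other foods contained 25% and 250% of its sugar and yeast. Each larval diet and age had 4 arrays here, but for the 3 that were left of old males of larval diet 0.25SY. By the study's methods the flies of a sex and diet combination came from the same cohort, so that the arrays of a group are separate pools of 1 cohort and the p-values below measure the spread between such pools. Age was set by mortality and not in days, and old flies are the survivors of their cohort. Males of the same diets at 1 day of age (12 arrays) are given beside them as a description, with no test.

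The array left out went against its label. Over all probe sets it correlated at r = 0.9706 with the other arrays of its group and at r = 0.9972 with 1-day-old males of larval diet 2.5SY and adult diet 1SY. Among the 23 arrays, replicate 3 of middle-aged males of larval diet 2.5SY also stood apart, with r = 0.9865 to its group, while the other 22 lay between 0.9957 and 0.9976. It was kept. Without it 2991 probe sets were higher and 1808 lower in old males, against 3002 and 1648 with it, and the genes called lower were 1 instead of 3 for the paralogues of respiratory subunits and 10 instead of 8 for the neuronal genes described below. No list count moved by more than 3. Whole male flies were well represented by their markers: the mean log2 level of 40 sperm and late spermatid genes was 10.31 to 10.86 in old males and that of 28 accessory gland seminal protein genes 10.84 to 11.55. The sperm list also holds Mst57Da and Mst57Dc, which are peptides of the accessory gland. Yolk and eggshell genes, markers of female tissue, were dim, with means of 5.81 to 6.40 in middle-aged and 5.74 to 6.87 in old males.

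Several systems of the fly are known to change over adult life. Antimicrobial peptides are secreted by the fat body when the Toll and Imd pathways sense microbes, mitochondria of the flight muscle carry much of the fly's respiration, and the midgut secretes trypsin-like and chymotrypsin-like peptidases onto food. Male accessory glands make the seminal proteins that alter the behaviour and egg laying of mated females. In RNA of whole flies, fewer cells of a type and less RNA per cell cannot be told apart.

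Old males differed from middle-aged males in 3730 of the 11982 genes (31.1%) that were represented by 1 probe set, at an adjusted p under 0.05 in limma with larval diet as a covariate. Of these, 2498 were higher in old males, 20.8% of all genes, and 1232 were lower, 10.3%. Most differences were small, with a median size of 0.252 on the log2 scale, and 214 genes rose and 255 fell by more than 0.5. The arrays of old males had a higher median log2 value by 0.058, or by 0.035 without the middle-aged array that stood apart, and when every array was centred on its median the split over probe sets turned from 3002 higher (16.0%) and 1648 lower (8.78%) to 1927 and 2508. With the array that went against its label put back, 1269 probe sets were higher and 859 lower. Over the 11982 genes, 1612 were higher and 1825 lower with centred arrays, and 1050 and 695 with that array put back. Counts of list members under these 2 settings below are to be read against these totals and not against 20.8% and 10.3%. The old values lay wholly above all middle-aged values for 290 genes (2.42%) and wholly below for 71 (0.593%). The first principal component, with 29.6% of the variance, placed all old arrays at 6.2 to 21.42 and 11 middle-aged arrays at -19.81 to -2.67. The middle-aged array that stood apart lay at -53.4, so that the share of variance also reflects that array.

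The largest rise was that of CG7017, a gene given no role here. Its log2 level was 4.71 at the lowest, 6.93 at the median and 8.29 at the highest of the middle-aged arrays, against 8.78, 10.11 and 10.67 in old males. The groups did not overlap, and at 1 day all arrays lay between 4.38 and 4.84. The difference was 3.34 ± 0.39 (SE, adjusted p = 1.7e-06, limma), or 10.1-fold. CG14545 followed with 5.20, 5.83 and 6.75 at middle age and 7.47, 8.38 and 10.06 in old males, a difference of 2.70 ± 0.28 (adjusted p = 3.0e-07). Its groups did not overlap either, and its 1-day values were 4.29 to 5.06. Both genes also rose on the other adult diets, by 3.25 and 2.50 on 0.25SY and by 4.19 and 3.13 on 2.5SY.

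Among the next genes by size, AttD, which encodes the antibacterial peptide attacin D, had middle-aged levels of 5.64 to 8.59 and old levels of 8.54 to 10.68, and 10 of the 11 old arrays exceeded every middle-aged array. The long non-coding RNA lncRNA:CR42646 rose from a median of 5.87 to 7.90 without overlap. RnrL, the large subunit of ribonucleotide reductase, which makes deoxynucleotides, had the most even rise of these. Its levels were 5.91 to 6.32 at 1 day, 6.64 to 7.16 at middle age and 7.80 to 8.66 in old males, in separate ranges at each age, and the difference was 1.28 ± 0.083 (adjusted p = 4.1e-10). CG8620 rose by 1.36 ± 0.12 and also without overlap, while GstD5, a glutathione S-transferase, rose by 1.55 ± 0.21 with 1 old array inside the middle-aged range. CG6933 rose by 1.44 and CG18557 by 1.31, both with overlap.

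**Figure D1:**
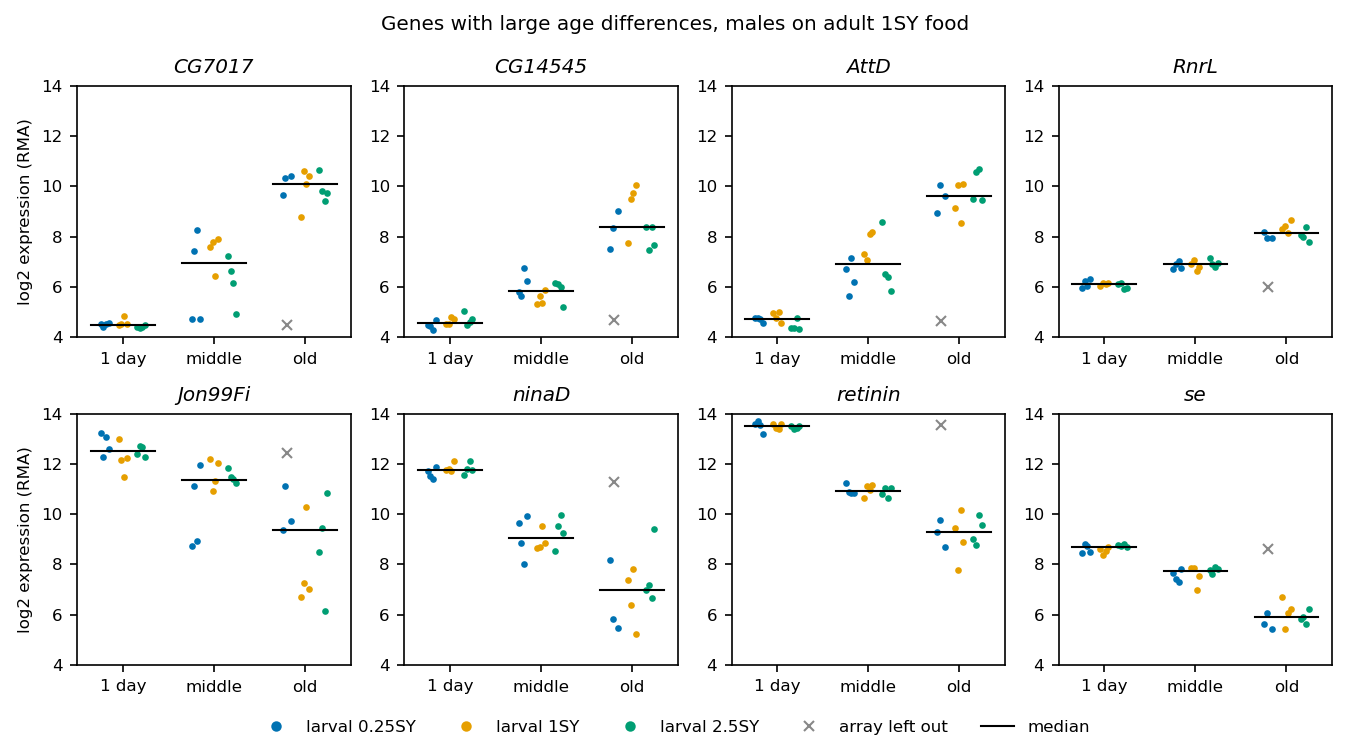
Log2 expression (y axis) of 4 genes that rose and 4 that fell with age, in each array of males on adult 1SY food at 1 day, middle age and old age (x axis); colours mark the larval diet, bars the medians and grey crosses the array left out. In CG7017, CG14545, RnrL, retinin and se the old arrays lie apart from all middle-aged arrays, and the array left out lies near the 1-day-old males.

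The largest fall was in Jon99Fi, a midgut serine peptidase of a family with close copies, so that its probes may also bind its relatives. Its levels spread widely, from 8.74 through 11.36 to 12.19 at middle age and from 6.13 through 9.37 to 11.13 in old males, with overlap, and the difference was -2.33 ± 0.58 (adjusted p = 0.0045, limma). ninaD, a scavenger receptor needed for carotenoid uptake, fell by 2.18 on the log2 scale, from a median of 9.06 to 6.99, and 9 of 11 old arrays lay below every middle-aged array. The eye genes retinin, a protein of the corneal lens, and se, an enzyme of the red eye pigment pathway, fell without overlap. The levels of se were 7.00, 7.73 and 7.91 at middle age and 5.42, 5.90 and 6.70 in old males, a difference of -1.72 ± 0.13 (adjusted p = 5.1e-09). retinin had been at 13.21 to 13.71 at 1 day, stood at 10.63 to 11.22 at middle age and at 7.76 to 10.18 in old males. LManIII, a lysosomal alpha-mannosidase, fell by 1.79, and Lsp2, a storage protein of the haemolymph, by 1.73. CG12057 fell by 1.99, the cuticular protein gene Cpr72Ec by 1.85 and CG31091 by 1.70. The fall of CG15369 by 1.68 had an adjusted p of 0.049 and overlapping groups, and many alternatives, the fit of all 24 arrays among them, did not call it.

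Among immune genes, 5 of 7 antimicrobial peptide genes with a probe set rose and none fell, with a median difference of 1.32 where the median over all genes was 0.013. AttD, edin (2.26), Def, which encodes defensin (1.77), DptB, which encodes diptericin B (1.32), and Mtk, which encodes metchnikowin (0.85), passed the test, and CecB (1.05, adjusted p = 0.13, limma) and Drs (0.45, adjusted p = 0.10) did not. The mean level of the 7 genes was 6.75 to 7.16 at 1 day, 9.43 to 11.73 at middle age and 11.05 to 13.09 in old males. Most of the distance from 1 day was thus present at middle age, and 9 of 11 old arrays exceeded all middle-aged arrays. DptB ran from 10.79 to 13.97 at middle age and from 13.13 to 14.60 in old males. Upstream of the peptides, 10 of 18 genes of the Toll and Imd pathways rose and none fell (median 0.15), among them Rel, the NF-kappaB factor of the Imd pathway (0.44), IKKbeta, its kinase (0.32), spz, the ligand of Toll (0.26), and pll, a kinase below Toll (0.26). With arrays centred on their medians this count was 5, and with quantile normalization repeated it was 6. Of 9 genes of the peptidoglycan recognition protein (PGRP) and glucan-binding families, not all of which need sense microbes, 4 rose. These were PGRP-SB1 (0.75), PGRP-LF (0.57), PGRP-LA and PGRP-LE. Of 9 Bomanin and Daisho peptides, which Toll induces, 3 rose, BomBc3, BomBc2 and BomT3, by 0.18 to 0.31. BomBc3 was not called in 12 of 23 fits that each left out 1 array nor in 7 of 12 other settings, and with centred arrays BomBc2 alone was called. With the array that was left out put back, 1 antimicrobial peptide gene and 1 pathway gene were called, and no gene of the PGRP and glucan-binding families or the Bomanins. No Turandot stress peptide gene of 4 passed the test.

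Genes for making ribosomes rose together in old males. Of 52 ribosome biogenesis genes 44 rose and none fell, with a median difference of 0.32. Examples were RIOK1, a kinase of small subunit maturation (0.75 ± 0.064, adjusted p = 2.6e-08, limma), eIF6, which keeps the large subunit from joining too early (0.65 ± 0.067), CG9143 (0.59) and CG13097 (0.51). The mean level of the list was 7.39 to 7.69 at 1 day, 7.91 to 8.21 at middle age and 8.29 to 8.63 in old males. The 3 ages did not overlap. Of 30 aminoacyl-tRNA synthetases, which charge tRNAs with amino acids, 18 rose and none fell (median 0.20), led by GluProRS (0.57), AlaRS (0.39), TrpRS (0.36) and GlyRS (0.33), and all 11 old list means lay above all middle-aged means. The structural proteins of the cytosolic ribosome differed by little: 8 of 41 with a probe set of their own rose and none fell, close to the share of all genes, and their median of 0.06 became 0.00 with centred arrays, where 2 were called. With single arrays left out 4 to 10 were called, and 11 of these 23 fits called 4 or 5. Of 69 mitochondrial ribosomal proteins, 4 rose and 15 fell (median -0.01). The counts for ribosome biogenesis and the synthetases were 41 and 14 with centred arrays, and 17 and 10 with the left-out array put back.

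Chaperones and the proteasome were also higher. Of 22 listed heat shock proteins and co-chaperones 11 had a probe set of their own, of which 9 rose and none fell (median 0.19). They included DnaJ-1, an Hsp40 (0.45), the small heat shock protein Hsp26 (0.38), the co-chaperone stv (0.35) and l(2)efl (0.24). The change of DnaJ-1 depended on the larval diet and was absent in males of larval diet 2.5SY, as given below. The list mean of all 11 old arrays, 11.73 to 11.84, was above that of all middle-aged arrays, 11.43 to 11.62. CCT5, a subunit of the chaperonin that folds actin and tubulin, had levels of 10.73, 10.97 and 11.06 at middle age and 11.48, 11.68 and 11.84 in old males, a difference of 0.72 ± 0.045 without overlap (adjusted p = 2.1e-10, limma). Of 26 proteasome subunits 15 rose and none fell (median 0.11), with Rpt3 (0.27), Rpn2 (0.26), Prosbeta5 (0.25) and Rpt4 (0.24) in front. Of 14 testis forms of the proteasome, 1 changed, Prosalpha3T, which fell by 0.22. Of 21 autophagy genes 7 rose and 1 fell: ref(2)P, the receptor that brings ubiquitinated proteins to autophagosomes, rose by 0.29, Atg17 by 0.29 and Atg5 by 0.25, and Atg13 fell by 0.17, a call that was lost in 5 of 23 fits without 1 array. With centred arrays 4 heat shock genes and 6 proteasome genes were called, all higher. With the left-out array put back the counts were 5 and 4.

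**Figure D2:**
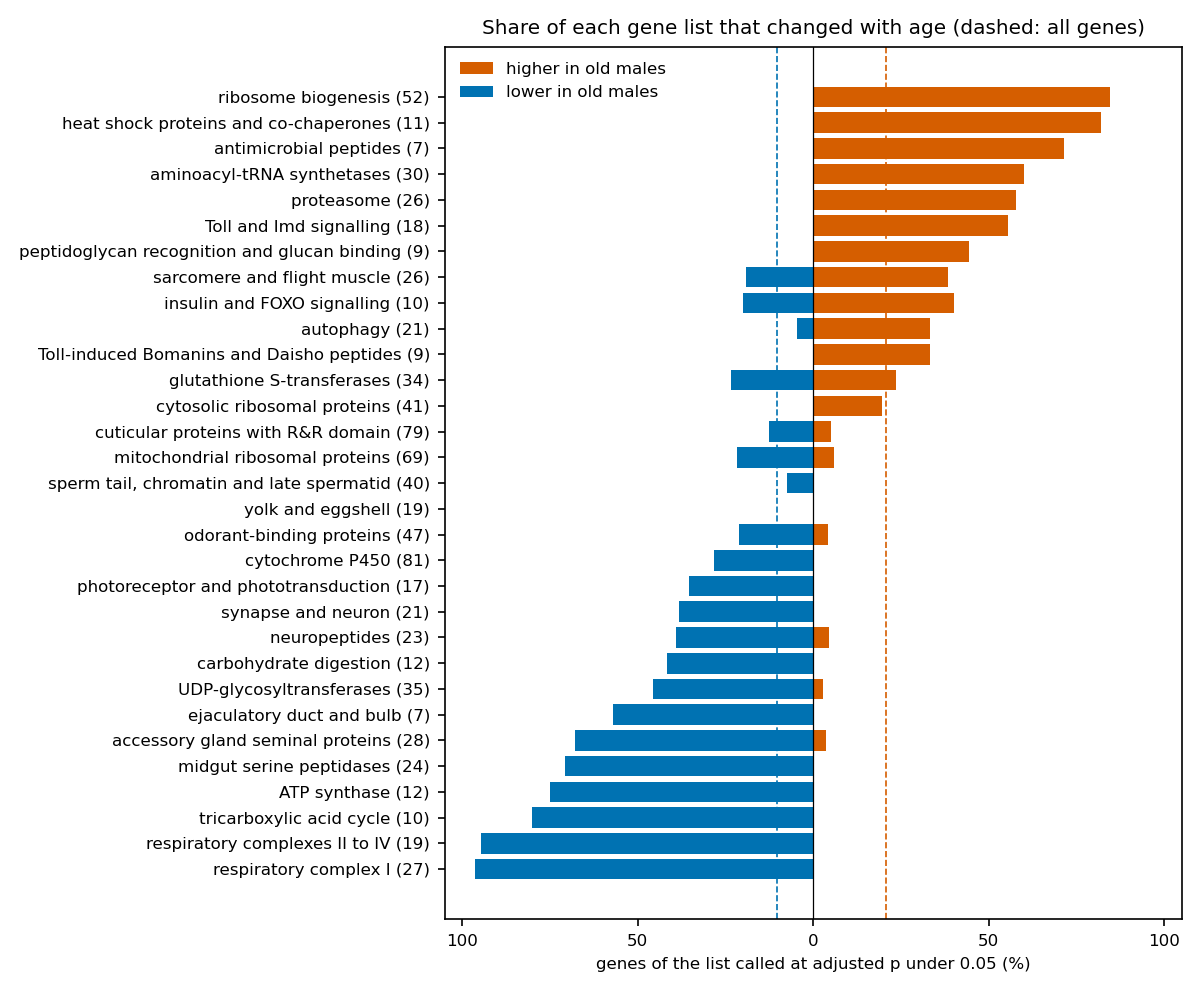
Share of the measured genes of each list (x axis, %) that was higher (orange, to the right) or lower (blue, to the left) in old than in middle-aged males at an adjusted p under 0.05; the number of genes stands in brackets and the dashed lines give the shares among all genes, 20.8% higher and 10.3% lower. Ribosome biogenesis (44 of 52) stands at the top and respiratory complex I (26 of 27) at the bottom.

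Nuclear genes of mitochondrial respiration fell nearly throughout, each by little. Of 27 subunits of complex I, the NADH dehydrogenase, 26 fell (median -0.20), of 19 subunits of complexes II to IV 18 fell (-0.22), of 12 subunits of ATP synthase 9 fell (-0.13), and of 10 enzymes of the tricarboxylic acid cycle 8 fell (-0.21). None of these rose. Their falls were 0.33 for ND-B14.5A, 0.31 for SdhB of complex II, 0.28 for ATPsynO, 0.46 for Idh3g, a subunit of isocitrate dehydrogenase, and 0.39 for the aconitase mAcon1. The mean level of complex I was 12.62 to 12.74 at 1 day, 11.81 to 11.99 at middle age and 11.57 to 11.74 in old males. In each of these 4 lists all 11 old means lay below all middle-aged means, and the distance between 1 day and middle age was larger than that between middle and old age. ND-B8, a complex I subunit, departed from its list: its levels were 10.72 to 11.25 at 1 day, 8.75 to 10.21 at middle age and 7.62 to 8.42 in old males, a difference of -1.54 ± 0.13 (adjusted p = 2.4e-08, limma). Its groups did not overlap. Of 21 paralogues of respiratory subunits 3 fell, COX7AL2 by 0.87 with a probe set that may bind other transcripts, and ND-20L and ND-51L2 by 0.17 each. The calls of the last pair were weak: ND-20L was not called in 12 and ND-51L2 in 9 of the 23 fits without 1 array, nor was either called with the left-out array put back. Of 10 glycolytic enzymes 5 fell (median -0.13), among them Pgi (-0.25), Pgk (-0.21) and Gapdh1 (-0.15), the last not called in 8 of the 23 fits without 1 array, and the count of 5 became 3 in 5 of those fits, without replicate 4 of middle-aged or replicate 2 of old males of larval diet 1SY, replicate 4 of old males of larval diet 0.25SY, or replicate 1 or 2 of old males of larval diet 2.5SY. With centred arrays 27, 18, 12 and 10 members of the 4 respiratory lists fell. With the left-out array put back 7, 3, 0 and 3 did.

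**Figure D3:**
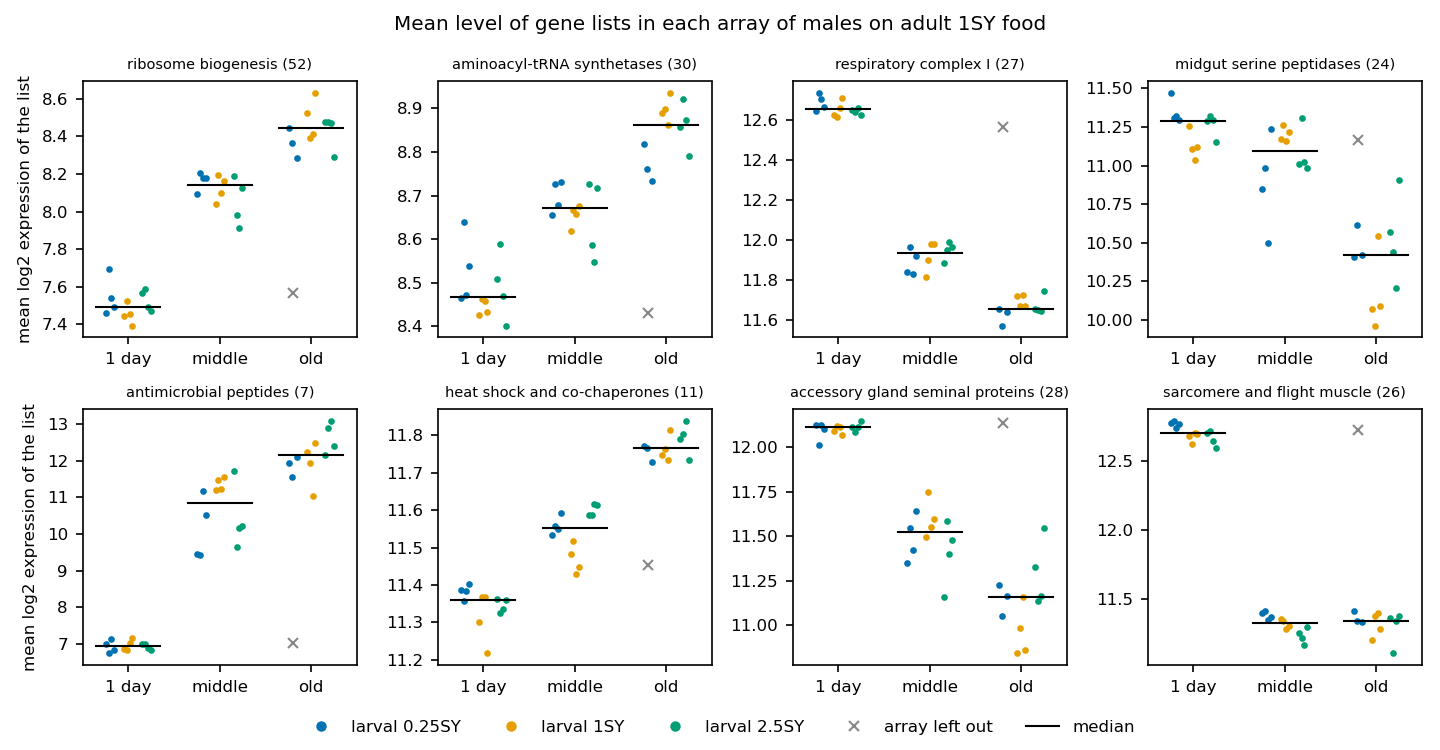
Mean log2 expression (y axis) of the genes of 8 lists in each array of males on adult 1SY food at 1 day, middle age and old age (x axis); colours mark the larval diet, bars the medians and grey crosses the array left out, and each panel has its own scale. Old arrays lie apart from middle-aged arrays for ribosome biogenesis, aminoacyl-tRNA synthetases, heat shock and respiratory complex I, while the muscle list moved mainly between 1 day (12.60 to 12.79) and middle age (11.17 to 11.42).

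Digestive peptidases of the midgut fell, with 17 of 24 lower, none higher and a median of -0.52. After Jon99Fi the largest falls were those of Jon65Ai (-1.86), Jon65Aii (-1.83) and Jon44E (-1.50), and as these genes have close copies their probes may share signal. The mean level of the 24 genes was 11.03 to 11.47 at 1 day, 10.50 to 11.31 at middle age and 9.96 to 10.91 in old males, so that the ages overlapped and 7 of 11 old arrays lay below all middle-aged arrays. Of 12 carbohydrate digestion genes 5 fell and none rose (median -0.26): Amyrel, an amylase relative (-0.81), and the maltases Mal-A3 (-0.73), Mal-A7 (-0.51), Mal-A8 (-0.35) and Mal-A2 (-0.27). That count depended on single arrays and was 10 without replicate 4 of middle-aged males of larval diet 0.25SY. No lysozyme gene of 3 was called.

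In the male reproductive tract the accessory gland had the most genes that fell. Of 28 seminal protein genes of the accessory gland 19 fell and 1 rose (median -0.41). Acp98AB had levels of 13.50, 13.96 and 14.23 at middle age and 12.80, 13.13 and 13.72 in old males, and 9 of 11 old arrays lay below all middle-aged arrays (-0.75 ± 0.098, adjusted p = 6.3e-06, limma). Acp53C14c fell by 0.75, the serpin Spn28F by 0.69, lectin-46Ca by 0.68 and SP, the sex peptide that lowers the receptivity of mated females, by 0.58. Acp26Ab went the other way and rose by 0.33. Of 7 genes of the ejaculatory duct and bulb 4 fell, Dup99B, a relative of the sex peptide (-0.38), Obp51a (-0.35), EbpII (-0.33) and Ebp (-0.27). Of 40 genes listed for the sperm tail, sperm chromatin and late spermatids none rose (median -0.03), though up to 2 rose with single arrays left out. The 3 that fell, a smaller share than the 10.3% of all genes, were scpr-C, Mst57Da and Mst57Dc. Despite their names, Mst57Da and Mst57Dc are peptides of the accessory gland, so their falls do not stand for sperm. Of 10 meiotic arrest genes of the testis 1 was lower, mia (-0.23), close to the 10.3% of all genes that fell. Of 14 genes of germline stem cells and the testis niche 2 rose, a smaller share than the 20.8% of all genes that rose. These were esg, a transcription factor of stem cells of testis and gut, by 0.70 and hh by 0.32. With the left-out array put back, 8 accessory gland genes and 2 of the ejaculatory duct and bulb fell. None of 19 yolk and eggshell genes was called, and of 19 female germline genes spn-E and fs(1)K10 rose, while 2 to 4 did with single arrays left out. In the main fit this was a smaller share than the 20.8% of all genes that rose.

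Muscle genes moved in both directions. Of 26 sarcomere and flight muscle genes 10 rose and 5 fell, and their median of 0.02 became -0.04 with centred arrays, where 7 rose and 8 fell. fln, which encodes flightin of the flight muscle thick filament, fell from 14.14 to 14.45 at 1 day to 10.73 to 11.28 at middle age and 8.83 to 9.95 in old males. Its difference between the later ages was -1.46 ± 0.11 without overlap (adjusted p = 4.4e-09, limma), and TpnC41C, a troponin C, fell by 0.82, also without overlap. Act88F, the actin of the flight muscle, rose by 1.00 ± 0.17 after a far larger drop from its 1-day values of 14.56 to 14.77, with 10.38 to 11.83 at middle age and 10.97 to 12.65 in old males. Mlc2, the regulatory light chain of myosin, rose by 0.55 without overlap, the titin relative sls by 0.45 and TpnC73F by 0.27.

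Of 17 genes listed for photoreceptors, phototransduction and the supply of visual pigment 6 fell and none rose (median -0.13). The largest falls were in genes of pigment supply: ninaD, the receptor for carotenoid uptake, and Pdh, a dehydrogenase of the visual cycle (-1.10). The phototransduction genes Arr1, the arrestin that switches off rhodopsin (-0.45), and Gbeta76C, a subunit of the visual G protein (-0.33), fell less. Of 21 neuronal genes 8 fell and none rose (median -0.14), and all falls were small, with Gad1, which makes the transmitter GABA (-0.24), Snap25 (-0.24), futsch (-0.23) and cpx (-0.22) in front. That count was 5 to 10 with single arrays left out, with 5 without replicate 4 of middle-aged males of larval diet 1SY, replicate 2 of old males of larval diet 0.25SY or replicate 1 of old males of larval diet 2.5SY, and 0 with the left-out array put back. Of 23 neuropeptide genes 9 fell and FMRFa rose by 0.37. Nplp3 fell from 9.51 to 11.13 at middle age to 8.44 to 9.79 in old males, a difference of -1.61 ± 0.17 (adjusted p = 4.5e-07, limma), after 14.54 to 14.80 at 1 day, and was not called with the left-out array put back. Orcokinin fell by 0.44, and Pdf, a peptide of the brain clock neurons, by 0.34.

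Of 18 listed genes of insulin and FOXO signalling 10 had a probe set of their own. Of these 4 rose and 2 fell, where 20.8% of all genes rose and 10.3% fell. The ligands Ilp2 and Ilp5, made by a small group of brain neurons, fell by 0.67 and 0.64. Ilp2 was at 8.94, 9.28 and 9.52 at middle age and 8.33, 8.57 and 8.95 in old males, and 10 of 11 old arrays lay below all middle-aged arrays. The receptor InR rose by 0.64 ± 0.098 (adjusted p = 4.3e-05, limma), from 9.28 to 10.07 at middle age to 9.96 to 10.85 in old males. Downstream of the receptor, the kinase Akt rose by 0.41 without overlap and the substrate chico by 0.15. ImpL2, which binds insulin-like peptides in the haemolymph, rose by 0.26. The rise of chico was not called in 14 of the 23 fits without 1 array nor in 7 of 12 other settings, centred arrays and the left-out array put back among them, and ImpL2 was not called in these latter settings. The other 4 of the 10 measured genes did not pass.

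Enzymes that modify foreign compounds had more genes that fell than rose in a pair of families and as many of each in another. Of 81 cytochrome P450 genes 23 fell and none rose (median -0.10), with Cyp6a8 (-0.94), Cyp6t1 (-0.63), Cyp6a21 (-0.57) and Cyp28d1 (-0.53) in front. Of 35 UDP-glycosyltransferases 16 fell, Ugt37B1 by 1.07, and 1 rose, which was not called in 15 of the 23 fits without 1 array. Of 34 glutathione S-transferases 8 rose, close to the 20.8% of all genes that rose, and 8 fell. GstD2, GstD3 and GstD9 rose by 0.78, 0.73 and 0.68 beside GstD5, and GstD7 fell by 0.71 without overlap. All are members of 1 cluster of close copies. Of 13 haemocyte markers 3 fell, Pxn by 0.35 and the prophenoloxidases PPO1 and PPO2 of crystal cells, whose products drive melanisation, and Col4a1 rose by 0.25. PPO1 was at 8.84, 9.40 and 10.02 at middle age and 7.36, 8.04 and 8.76 in old males, a difference of -1.25 ± 0.18 without overlap (adjusted p = 2.1e-05, limma), and PPO2 fell by 0.82. Of 47 odorant-binding protein genes 10 fell and 2 rose. Of 79 cuticular protein genes 10 fell, close to the 10.3% of all genes that fell, and 4 rose. The largest rise was that of Cpr62Bb, at 1.02 without overlap.

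Whether age acted alike in males of the 3 larval diets was asked with the interaction of larval diet and age. It passed for 1 of 18769 probe sets (0.00533%), that of DnaJ-1 (F = 61.8, adjusted p = 3.4e-05, limma), and 2607 had an unadjusted p under 0.05. DnaJ-1 rose by 0.65 in males of larval diet 0.25SY and by 0.84 in those of 1SY, and differed by -0.10 in those of 2.5SY. The middle-aged arrays of larval diet 2.5SY had a mean of 12.21 and those of the other larval diets ranged from 11.33 to 11.61. The old arrays of all larval diets were close together, at 12.04 to 12.36. The next genes, CG4768, Cpr47Ef, Lip2 and sbm, shared an adjusted p of 0.0628, and other settings called up to 7 probe sets.

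Ageing on standard food was compared with ageing of males on the poor and the rich adult food in a fit of 69 male arrays, with the same 1SY arrays in both comparisons. This fit also left out 1 array of each other diet that stood apart from its label, replicate 1 of old males of larval diet 1SY on adult 0.25SY and replicate 1 of old males of larval diet 0.25SY on adult 2.5SY. Against 0.25SY the age difference differed for 105 probe sets (0.559%), or 89 genes (0.743%), but for 1 probe set, that of CG3841, when all 72 arrays were kept. Act79B, an actin of tubular muscle, rose by 0.15 on 1SY and fell by 0.40 on 0.25SY (difference 0.55 ± 0.077, adjusted p = 2.5e-05, limma), although its rise on 1SY was not called with centred arrays nor in 17 of the 23 fits without 1 array. ebd1, a transcriptional cofactor of Wingless signalling, rose by 0.44 on 1SY and had a difference of -0.05 on 0.25SY. Zasp52, a protein of the muscle Z-disc, had differences of -0.08 and -0.45, and CG3841 of -0.40 and 0.18. Against 2.5SY 0 probe sets passed (0.0%, smallest adjusted p = 0.147, limma), with 1631 at an unadjusted p under 0.05.

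Side by side, the lists showed where the adult diets lay in relation to each other. Counts on 1SY came from the fit of 23 arrays and those on the other diets from the fit of 69, so they are not strictly alike. For age on 1SY, the fit of 69 called 3368 probe sets higher and 2181 lower, against 3002 and 1648. Of the 24 midgut peptidases 3 fell on 0.25SY, 17 on 1SY and 23 on 2.5SY, with medians of -0.12, -0.52 and -0.69. Among all genes 12.5% fell on 0.25SY and 17.6% on 2.5SY. Only Jon65Aii of this list passed the test of the difference between 1SY and 0.25SY (-1.83 and -0.31, adjusted p = 0.025, limma), a call that was lost with all 72 arrays, and none passed that against 2.5SY. Of the 28 accessory gland genes 6 fell on 0.25SY, 19 on 1SY and 24 on 2.5SY, and no gene of the list passed either test. All 7 antimicrobial peptide genes rose on 0.25SY (median 1.96) and on 2.5SY (median 3.52), where 15.1% and 23.5% of all genes rose, and none differed from 1SY past the threshold. Ribosome biogenesis genes rose on every adult diet, 39 of 52 on 0.25SY and 48 on 2.5SY, and all 27 complex I genes fell on 0.25SY and on 2.5SY. ND-39, the complex I gene that did not pass on 1SY (-0.07, adjusted p = 0.13, limma), fell by 0.29 on 0.25SY, and this difference between the diets passed (adjusted p = 0.016) but was lost with all 72 arrays.

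**Figure D4:**
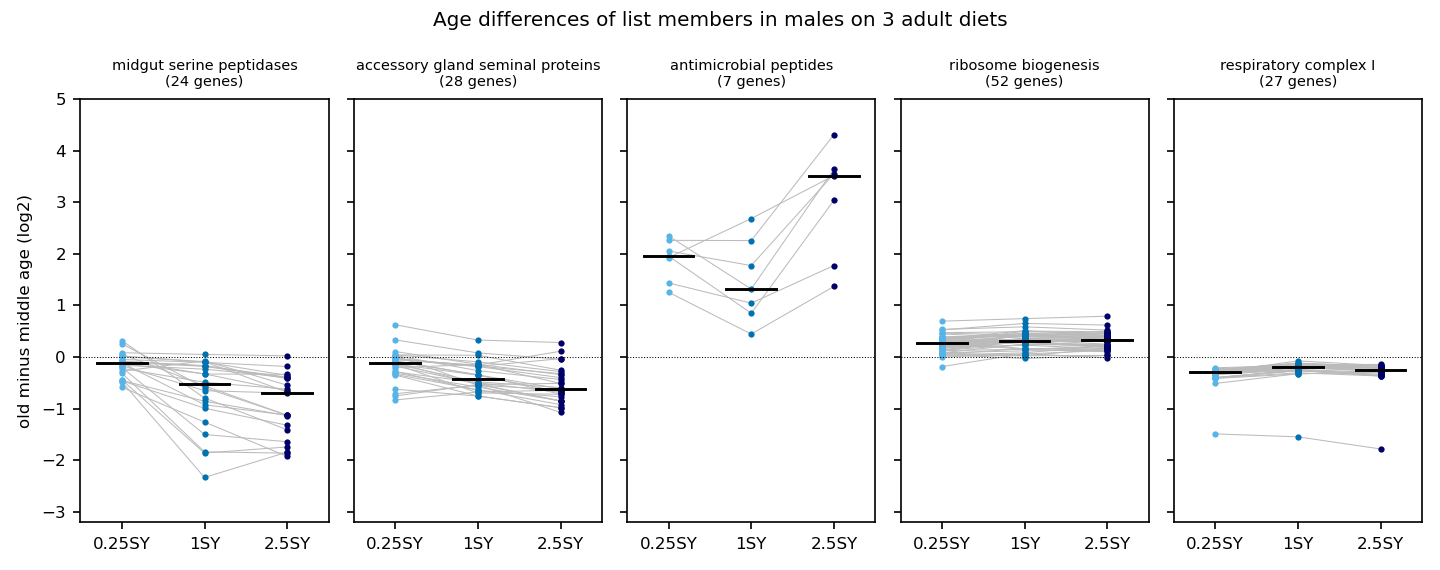
Age difference on the log2 scale (y axis, old minus middle age) of each gene of 5 lists in males on adult 0.25SY, 1SY and 2.5SY food (x axis); points are genes, grey lines join the values of a gene and bars give the medians. Midgut peptidases had medians of -0.12, -0.52 and -0.69 from poor to rich food, and ribosome biogenesis medians of 0.28, 0.32 and 0.33.

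Ageing of males was set against that of virgin females on the same food, with 24 female arrays of 12 middle-aged and 12 old samples. The age difference differed between the sexes for 2212 genes (18.5%), of which 1548 had the higher value in males (12.9%) and 664 the lower (5.54%). Array medians moved by 0.058 in males (0.035 without the middle-aged array that stood apart) and by -0.059 in females, and with centred arrays 3817 probe sets differed instead of 2835 (15.1%). Ribosome biogenesis genes rose in males while 9 fell and none rose in females (median -0.04), where 16.9% of all genes rose and 14.6% fell, and 43 of 52 had the higher age difference in males, 30 with centred arrays and 24 with all 48 arrays. Of the 30 aminoacyl-tRNA synthetases 17 had the higher difference in males (11 with all 48 arrays, and 11 with centred arrays, where 2 had the lower), GluProRS by 0.75 ± 0.067 (adjusted p = 1.2e-10, limma) and SerRS by 0.43. CCT5 rose by 0.72 in males and had a difference of -0.05 in females, the smallest p of this comparison, and CG3448 and CG6686 differed by 0.83 and 0.64.

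In females 23 of the 26 muscle genes fell (median -0.39) and none rose, and 19 had the higher age difference in males (15 with centred arrays). Act88F differed by 1.10 and Mlc2 by 0.90, whereas fln fell by 1.46 in males and 1.42 in females. Carbohydrate digestion genes rose in females, 9 of 12 with a median of 0.81, and 9 had the lower difference in males: Mal-A7 had differences of -0.51 in males and 1.35 in females and Amyrel of -0.81 and 0.97. Midgut peptidases fell in both sexes, 20 of 24 in females. Of the insulin genes, Ilp2 differed by -0.57, InR by 0.57 and Akt by 0.47. PPO1 differed by -1.48 and Lsp2 by -3.10, and among the leading genes CG7017 differed by 2.39, CG14545 by 2.52, RnrL by 0.99 and se by -1.26. retinin, ninaD and CG12057 fell in both sexes (-1.60, -2.09 and -2.17 in females), and their differences between the sexes did not pass the test. In complex I, 24 of 27 genes fell in females too (median -0.22). ND-B8 had a difference of -0.10 there, and its difference from males was -1.44 ± 0.16 (adjusted p = 2.1e-08).

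**Figure D5:**
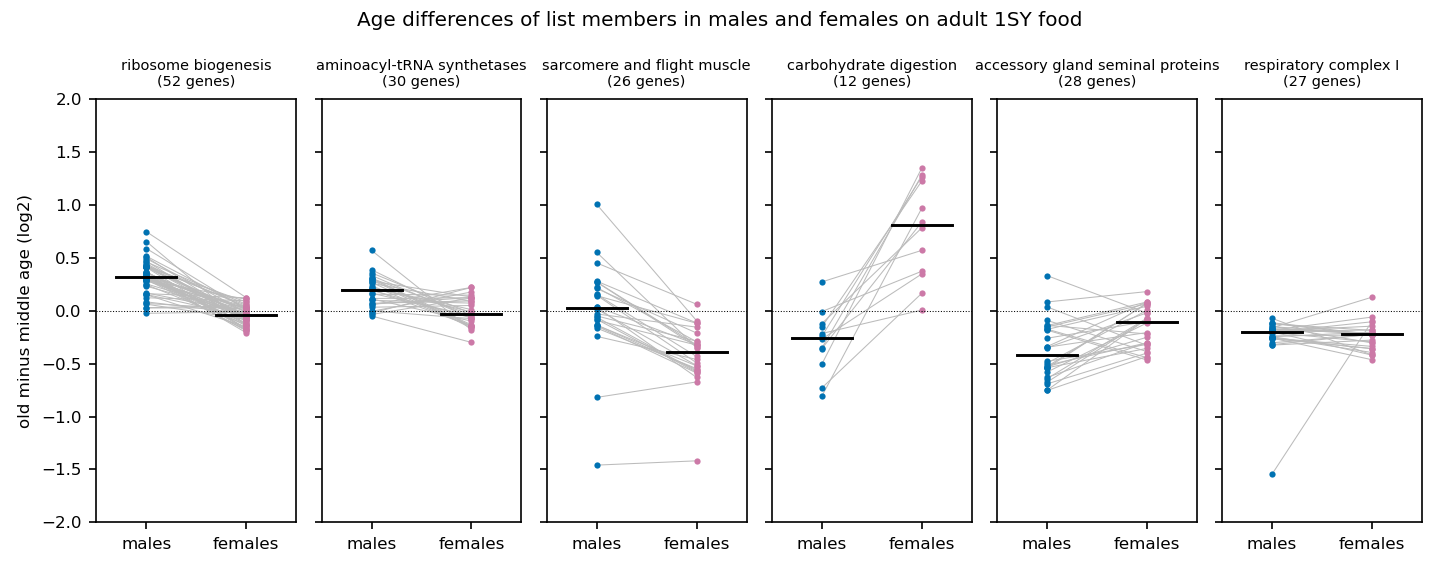
Age difference on the log2 scale (y axis, old minus middle age) of each gene of 6 lists in males and in females on adult 1SY food (x axis); points are genes, grey lines join the values of a gene and bars give the medians. Ribosome biogenesis had medians of 0.32 in males and -0.04 in females, muscle 0.02 and -0.39, and carbohydrate digestion -0.26 and 0.81.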

How the data were processed

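Whole-fly RNA had been hybridised to Affymetrix Drosophila 2.0 arrays. The deposited table holds log2 values that the authors made with RMA, which corrects background, gives arrays a common distribution and summarises probes. The methods describe this per sex, with 2 arrays of females and 4 of males excluded beforehand, whereas the table has 216 arrays and does not state its normalization. Of 18952 probe sets, 183 controls were dropped, leaving 18769, of which 13647 had a sole gene symbol, brought to Release 6 plus ISO1 MT names for 13544. A gene stood as its brightest probe set paired with it alone, and list counts cover only genes with such a probe set.

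limma (3.58.1, R 4.3.3) modelled larval diet and age in the 23 arrays, with Benjamini-Hochberg adjustment over all probe sets and a threshold of 0.05, and interactions across larval diets, adult diets (69 male arrays) and sexes (47 arrays). The scripts were tested on simulated data. Arrays have no read depth, and their number limits the precision.

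Genes named were CG7017, CG14545, the 12 largest rises and falls, up to 4 members of a list with the largest changes and up to 2 going the other way, and the 5 smallest p of each interaction. Mtk, CecB, Drs, SP, ND-39 and Mal-A2 were named after their values were seen. The arrays, genes and 48 gene lists were chosen with earlier results of these data known, and symbol patterns that had drawn wrong genes into 4 lists were corrected after values had been seen. Alternatives were all 24 arrays, centring, repeated quantile normalization, a filter on dim probe sets (mean of at least 5), other designs and tests, array weights, replicate or provider number as a block, and each array left out in turn. The fit without the middle-aged array that stood apart was chosen after seeing the data.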

Additional observations from a re-analysis of the deposited data

Results flagged for a closer look

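Of 210 groups of 4 arrays examined, over 42 genes and list means, 14 held an array far from the other 3. Chance gives about 1 such group in 20. On the log2 scale, CG12057 was at 8.90 in replicate 3 of middle-aged males of larval diet 0.25SY, against 11.34 to 11.58 in the others. edin was at 12 in replicate 1 of middle-aged males of larval diet 2.5SY, against 7.43 to 8.14. In the same array CG6933 was at 5.35, against 4.59 to 4.65. CG14545 was at 5.20 in replicate 4 of that group, against 5.99 to 6.16. Among middle-aged males of larval diet 1SY, Lsp2 was at 11.76 in replicate 2, against 12.23 to 12.30, and PPO1 at 8.91 in replicate 3, against 9.59 to 9.64. retinin was at 11.22 in replicate 1 of middle-aged males of larval diet 0.25SY, against 10.83 to 10.89.

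Replicate 3 of old males of larval diet 1SY was high in Jon99Fi, at 10.27 against 6.72 to 7.27, and in Jon65Ai, at 8.96 against 7.32 to 7.37. Jon65Aii, a midgut peptidase that was examined too, had no far value in any group. In replicate 2 of that group CG8620 was at 10.03, against 10.43 to 10.48. Replicate 4 of old males of larval diet 2.5SY had the lowest ribosome biogenesis mean of its group, 8.29 against 8.47 to 8.48, and the highest complex I mean, 11.74 against 11.64 to 11.65. The midgut peptidase mean was 11.31 in replicate 2 of middle-aged males of larval diet 2.5SY, against 10.98 to 11.03, and the muscle mean was 11.11 in replicate 2 of old males of that diet, against 11.34 to 11.38.

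The age difference varied between groups in 3 tests. It varied with the larval diet for 1 probe set, that of DnaJ-1 (F = 61.84). It differed between adult 1SY and 0.25SY for 105 probe sets, led by Act79B (0.55), CG3841 (-0.58), ebd1 (0.49), Zasp52 (0.37) and 1 further gene (0.48). It differed between the sexes for 2835 probe sets, led by CCT5 (0.78), GluProRS (0.75), CG6686 (0.64), SerRS (0.43) and CG3448 (0.83).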

How the results depend on the processing

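The 199 named genes followed were those past the threshold in the main fit, and Mtk, SP and Mal-A2 were not among them. No alternative turned the direction of any of the 199. As they were chosen for a clear difference and the alternatives use mostly the same arrays, few reversals could have appeared. Counts of probe sets called were 3002 higher and 1648 lower. With all 24 arrays they were 1269 and 859, and 80 named genes were not called. With arrays centred on their medians they were 1927 and 2508, and 19 named genes were not called. The other settings gave 2587 to 3368 higher and 1521 to 2181 lower, from repeated quantile normalization, the 69-array fit, no larval covariate, larval diet by age kept, a plain ANOVA, the dim filter, array weights and blocks, with 1342 lower at 1 probe set per gene. Leaving out arrays in turn gave 2627 to 3084 and 1438 to 1808.

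The larval diet by age count of 1 became 7 with the filter on dim probe sets, 2 with centring, 3 with a replicate block, and 1 to 7 with single arrays left out, 7 without replicate 4 of middle-aged males of larval diet 2.5SY. The count of 105 against adult 0.25SY became 1 with all 72 male arrays, 179 with the dim filter, 59 with centring and 59 with a replicate block, and the count of 2835 against females became 1776 with all 48 arrays. The count of 0 against adult 2.5SY stayed 0 under each of these. The causes of these shifts were not tested.

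Replicate numbers did not pair arrays across groups: deviations of arrays with the same number correlated at -0.013 on average over 55 pairs, against 0.004 for other numbers, and 4 of 23 arrays were closest to their own number. A replicate block gave 2746 higher and 1521 lower probe sets, and 2728 against females. Dim probe sets lie near background, where RMA compresses differences.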
